A study of Homo sapiens with 8 samples.

Results

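The D and E cyclins, the kinases they switch on and their shared substrate were followed as a group of 9 genes, namely CCND1, CCND2, CCND3, CCNE1, CCNE2, CDK4, CDK6, CDK2 and RB1. They were taken by symbol from the tables, with no threshold on their values, and make up 9 of the 60651 genes counted by RNA-seq. In the table of polyadenylation sites (PASs), 7 of them were found among 15988 named genes, with 86 of the 228494 listed PASs. CCNE2 (chromosome 8) and CDK6 (chromosome 7) were absent from that table, which ends on chromosome 7, and were not analysed in the 3′ end data. Their absence does not bear on their expression. All 8 libraries came from HEK293T, a human embryonic kidney line that carries the SV40 large T antigen and adenovirus E1A, here as HEK293TAPA cells with a stably expressed alternative polyadenylation (APA) reporter at a medium level. The study asked whether dPguCas13b, a nuclease-dead Cas13 that binds RNA without cutting it, changes endogenous transcripts when a gRNA sends it to the PAS inserted in the reporter. Every library came from cells transfected with dPguCas13b and harvested 48 hours later, and the groups differed in the gRNA alone, gUSE for the upstream element of the reporter PAS or gNT with no target. For each gRNA, 2 libraries were made by 3′ end mRNA sequencing and 2 by RNA-seq. Separate cultures were not described, so the p-values cover the spread between these libraries, which may be technical.

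In the cell cycle, D cyclins bind CDK4 or CDK6 when growth signals arrive, and E cyclins bind CDK2 shortly before DNA synthesis starts. Both kinds of complex phosphorylate the retinoblastoma protein, the product of RB1, which otherwise holds E2F transcription factors and keeps S phase genes off. Large T and E1A bind the retinoblastoma protein themselves, so in HEK293T cells this brake is known to be bypassed. CCND1 is also a classic gene of alternative polyadenylation, since its messages can end early in a long 3′ UTR and then lack many of the sites for microRNAs and binding proteins. None of the gRNAs in these libraries was made against any of the 9 genes. A search of each gene with 1000 nt on either side found 0 sense sites with up to 4 mismatches to the target of gUSE or gNT, and the closest had 6.

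The study designed 4 gRNAs against CCND1 for other experiments, and their listed targets are shown because they mark 2 stretches of its long 3′ UTR, near the annotated end and farther upstream. All 4 were found by exact match on GRCh38 in the last exon of CCND1, within its 3′ UTR, and none was present in the libraries described here.
CCND1-gDis1: catgtaaccggcatgtttccagc
CCND1-gDis2: caccgcggcgcttcccagcacc
CCND1-gPro1: gaacaaattccagaagctattc
CCND1-gPro2: tcgggatgattggaatagcttc
The gDis1 target is at chr11:69654399-69654421 on the plus strand, the strand of the gene, and ends 53 nt before the annotated transcript end. The gDis2 target is at chr11:69654375-69654396, also on the plus strand, and ends 78 nt before that end. The gPro1 target, at chr11:69653852-69653873, matched the minus strand as listed. The gPro2 target is at chr11:69653840-69653861 on the plus strand, overlaps gPro1 in position and ends 613 nt before the transcript end. Their GC content was 52.2%, 77.3%, 36.4% and 45.5% in the same order.

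The RNA-seq libraries held 12470010 and 12977693 counts in the gNT libraries against 11576399 and 10259757 in the gUSE libraries. The 3′ end libraries were shallower, at 2380992 and 1593763 reads in the gNT libraries against 2196210 and 1701699 in the gUSE libraries, and the members had 73 to 488 reads each per library there. IRS4 and LIN28B, genes known for high expression in HEK293 cells, stood at 815 to 890 and 145 to 161 counts per 1000000 (CPM), and NEFL, NEFM and PAX2 at 45.9 to 52.7, 30.8 to 34.5 and 2.56 to 4.82. Markers of liver, blood, T cells, basal epithelium and heart (ALB, PTPRC, CD3E, KRT5 and MYH7) stayed at or below 1.69 CPM, with their highest value for MYH7 in gNT replicate 1.

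Each member was expressed, in RNA-seq with means that ran from 16.05 TPM for CCND3 to 133 for CDK4. Levels between genes are given as transcripts per 1000000 (TPM), counts divided by the summed exon length of the gene in GENCODE and scaled by edgeR's TMM factors, and the library values run in the order gNT replicate 1, gNT replicate 2, gUSE replicate 1 and gUSE replicate 2. The order of the 9 levels over the 4 libraries was CDK4, CDK2, CCND1, CCNE1, RB1, CDK6, CCND2, CCNE2 and CCND3. The ranges overlapped between the neighbours CCND1 and CCNE1, CDK6 and CCND2, and CCNE2 and CCND3, and lay apart for the other neighbours. The median of 16551 tested genes with a length was 12.9 TPM, below the mean of every member.

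Among the D cyclins, CCND1 had the highest TPM. Its values were 41.5, 39.05, 44.1 and 46.1 TPM, above 79.3% of the tested genes. CCND2, which is induced by mitogens in many of the same tissues, had 26.3, 27.5, 27.7 and 26.4 TPM. CCND3, the D cyclin found most widely across tissues, had 15.4, 15.6, 17 and 16.2 TPM. No library of 1 of these genes reached into the range of another. This gap between CCND1 and CCND3 depended on length, since with the length of the longest transcript in place of all exons CCND3 rose from 15.5 to 30.1 TPM in gNT cells, and CCND1 moved from 40.3 to 36.5. The TPM of CCND2 depends on how reads were assigned in the 999 nt of exon it shares with ENSG00000285901 on the same strand. That gene had 493 to 587 counts. CCND1 shares 497 nt of exon with LTO1 on the opposite strand, which had 342 to 359 counts. The effect of the assignment on the order of the D cyclins was not tested.

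Among the kinases, CDK4 and CDK2 stood above every cyclin of the group by TPM and CDK6 did not. CDK4 was at 131, 135, 130 and 135 TPM, above 94.3% of tested genes, whereas CDK6, its close relative that also takes D cyclins, was at 26.8, 29.0, 27.4 and 27.0. The ratio of CDK4 to CDK6 was 4.65 to 5.004 per library, and 7.35 to 7.91 with the length of the longest transcript. Both rest on a long annotated length of CDK6, 12239 or 11663 nt, with a 3′ UTR of 10222 nt whose use was not measured here. By CPM, without a length, the ratio was 1.175 to 1.264. CDK6 then had 112.5 to 123.4 CPM, above CDK2 at 91.9 to 99.1, so its low place depended on length. CDK2, the partner of the E cyclins, had 72.5, 72.1, 68.3 and 73.5 TPM, between 0.526 and 0.553 of the CDK4 level in each library. By TPM, CDK4 and CDK2 exceeded every cyclin in all 4 libraries, whereas the range of CDK6 overlapped that of CCND2.

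The E cyclins differed from each other in the same direction throughout. CCNE1 had 39.01, 39.13, 38.8 and 36.9 TPM, and CCNE2, which is encoded on another chromosome and does a largely shared job, had 18.5, 16.4, 19.3 and 20.4. This gave a ratio of 1.81 to 2.38. RB1 was at 33.6, 35.8, 33.6 and 30.7 TPM, so the message of the brake itself was present at a level between CCNE1 and CDK6. For CCNE2, 1629 nt of its exons are shared with exons of INTS8 on the opposite strand, and for CDK4 1369 nt with TSPAN31. For CCND1, 497 nt are shared with LTO1, also on the opposite strand. As it is not stated whether counting used strand, their reads cannot be told apart from those of the partner in these stretches. INTS8 had 846 to 1080 counts against 315 to 355 for CCNE2, while TSPAN31 had 97 to 110 against 1468 to 1873 for CDK4. LTO1 had 342 to 359 against 771 to 864 for CCND1. CCND2 shares 999 nt with ENSG00000285901, annotated as protein coding on the same strand, which had 493 to 587 counts against 742 to 986. Between paralogs of the group, the longest stretch shared by their canonical transcripts was 23 nt, for CCND1 and CCND2, and the 4 pseudogenes CCND2P1, CCND3P1, CCND3P2 and CDK4P1 had 0 counts in every library.

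**Figure D1:**
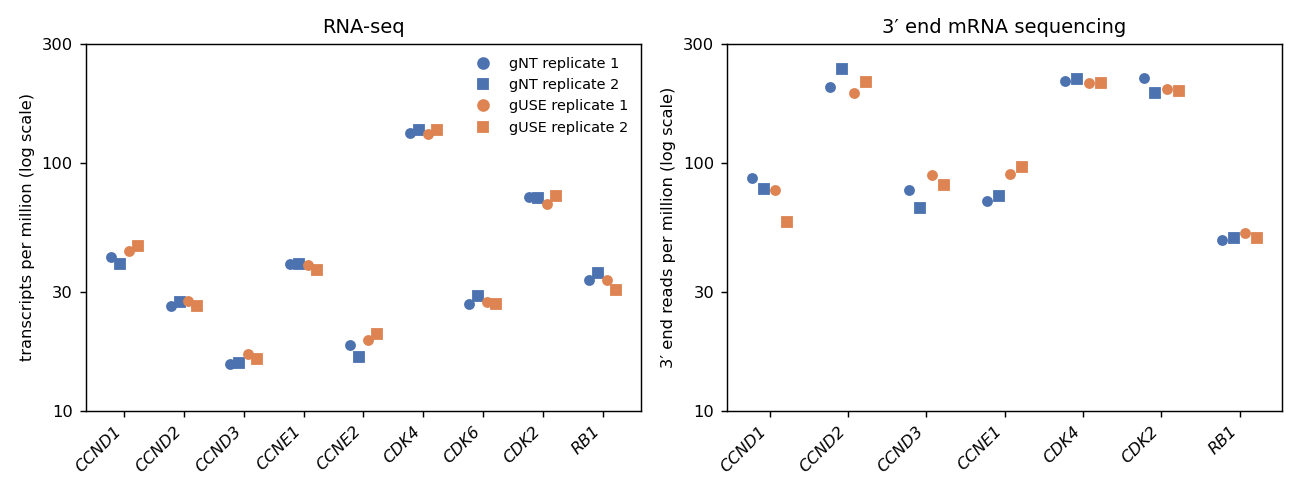
Level of each member per library, in RNA-seq as TPM (left) and in 3′ end mRNA sequencing as CPM (right), both on log axes, with gNT in blue and gUSE in orange. CDK4 stands highest on the left at 130 to 135 TPM, and CCND2, at 26.3 to 27.7 TPM on the left, stands beside CDK4 and CDK2 on the right at 190 to 239 CPM.

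The 3′ end libraries gave another order among the D cyclins. There, a read marks the end of a transcript and not a stretch along it, so CPM was compared between genes without a length. Only unique reads within 24 nt of a listed PAS were counted, and removal of duplicate reads was not described. CCND2 had 201, 239, 190 and 211 CPM, CCND1 had 86.9, 77.9, 77.9 and 57.5, and CCND3 had 77.5, 65.7, 89.1 and 81.5. CCND2 was hence the highest of the D cyclins in each 3′ end library, and the ranges of CCND1 and CCND3 overlapped. The ratio of CCND1 to CCND2 was 1.42 to 1.74 by TPM and 0.272 to 0.433 by 3′ end CPM. With the length of the longest transcript, the ratio by TPM was 1.37 to 1.68. All 4 libraries of either assay were on the same side of 1, and since no library was read by both assays and the assays differ in chemistry, no test was made. The ratio by TPM also depends on how reads were assigned in the exons that CCND2 shares with ENSG00000285901. If counting did not use strand, the same holds for the exons that CCND1 shares with LTO1.

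As a share of the 3 D cyclins, CCND1 took 48.7% ± 1.60 of the TPM in gNT cells and 50.8% ± 1.63 in gUSE cells (SD, n = 2). By 3′ end reads its share was 22.1% ± 2.41 and 19.1% ± 3.797. The Wilson 95% intervals, which cover counting error alone, ran from 21.0 to 26.9% and from 17.3 to 23.9% with gNT and from 19.0 to 24.9% and from 13.6 to 19.7% with gUSE. CCND2 took 32.5% ± 1.28 of the TPM with gNT and 30.5% ± 0.969 with gUSE, and 58.7% ± 5.25 and 56.8% ± 4.96 of the 3′ end reads. For CCND3 the shares by TPM were 18.8% ± 0.325 and 18.7% ± 0.665, and by 3′ end reads 19.2% ± 2.84 and 24.1% ± 1.16. By longest transcript, the shares of the TPM in gNT cells were 39.7% ± 1.44 for CCND1, 27.5% ± 0.990 for CCND2 and 32.8% ± 0.453 for CCND3, so CCND2 and CCND3 changed places while CCND1 still stood highest.

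**Figure D2:**
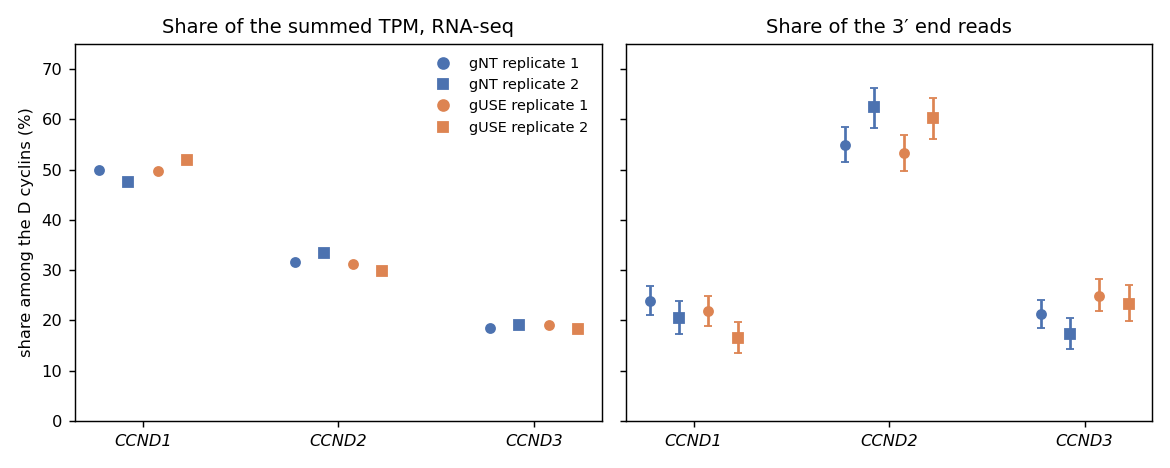
Share of each D cyclin among the 3, in percent, by RNA-seq TPM (left) and by 3′ end reads (right), for each library, with Wilson 95% intervals on the read shares. CCND1 takes 47.6 to 52.0% on the left and 16.4 to 23.8% on the right, where CCND2 takes 53.3 to 62.4%.

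The other members kept their order between the assays more closely. CDK4 had 213, 218, 209 and 209 CPM in the 3′ end libraries and CDK2 had 220, 190, 197 and 194. The ranges of CDK4, CCND2 and CDK2 overlapped here, and the ratio of CDK2 to CDK4 was 0.875 to 1.03, against 0.526 to 0.553 by TPM. CCNE1 had 70.3, 73.2, 89.6 and 96.0 CPM. RB1 was the lowest member, at 48.6, 49.5, 52.1 and 49.9 CPM, yet above 60.0% of the 8559 tested genes.

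Next, the ends of the messages were examined. A PAS counted as expressed when 2 or more libraries had 5 reads or more, which held for 12 of the 86 listed PASs of the members and for 22101 in the whole table. PAS positions are given as listed, on a build that was not named and that is not GRCh38, where the annotated end of CCND1 is 69654474 and not near the listed 69469242, and only the distances between them are used. CCND3, CCNE1, CDK2 and CDK4 had 1 expressed PAS each, as did 47.8% of the 9112 genes with any. CCND1 and CCND2 had 3 each and RB1 had 2. In all 3 of these genes the most distal expressed PAS held most reads, as in 2238 of 4760 genes with several expressed PASs (47.0%).

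The single PASs took nearly all reads of their genes. CCNE1:PAS1 (chromosome 19, 30315215, plus strand) had 156, 107, 184 and 152 reads, and the other 2 listed PASs together had 1. CDK2:PAS1 (chromosome 12, 56366541 to 56366568, plus strand) had 488, 281, 403 and 304 reads. CDK4:PAS1 (chromosome 12, 58141998 to 58142060, minus strand) collected 469, 318, 429 and 325 reads, with 14 reads at the other 12 listed sites. The messages of these kinases and of CCNE1 thus ended almost entirely at 1 listed PAS each at this depth, which for CDK2 and CDK4 is a stretch of positions. CCND3:PAS1 (chromosome 6, 41902690, minus strand) collected 166, 92, 178 and 125 reads, and a site 4881 nt upstream of it had 10 reads over the 4 libraries, below the filter.

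CCND1 had the most listed PASs of the group, 27, of which 17 had no read in any library. CCND1:PAS3, the most distal expressed one on the plus strand of chromosome 11 (69469203 to 69469242), had 146, 88, 123 and 72 reads. CCND1:PAS2 (69468724 to 69468749), 493 nt upstream, had 26, 11, 20 and 15, and CCND1:PAS1 (69466501), 2741 nt upstream, had 12, 9, 10 and 4. Usage, the share of the reads at the expressed PASs of the gene, was 79.3%, 81.5%, 80.4% and 79.1% for CCND1:PAS3. The form with the longest 3′ end therefore made up most of the CCND1 reads in each library. A site 2864 nt upstream had 12 reads in total, with 4, 4, 4 and 0 per library, and missed the filter, and all 24 unexpressed sites together held 4.11% of the CCND1 reads. On GRCh38 the 3′ UTR of CCND1 is 3195 nt long and holds 1 AATAAA, the commonest signal for cleavage, whose first base is 21 nt before the transcript end, and no ATTAAA. If CCND1:PAS3 marks that annotated end, both upstream PASs lie within the 3′ UTR, and the gDis targets shown above lie between CCND1:PAS2 and CCND1:PAS3.

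CCND2 ended farther apart. CCND2:PAS3 (chromosome 12, 4414519, plus strand) had 395, 310, 338 and 281 reads, CCND2:PAS2 (4409379) had 21, 16, 28 and 23, and CCND2:PAS1 (4409280) had 27, 21, 22 and 26. Both upstream sites lie over 5 kb before the main one, at 5140 and 5239 nt, where the annotated 3′ UTR measures 5347 nt, so by distance a message cut there would keep only the first stretch of it. Usage of CCND2:PAS3 was 89.2%, 89.3%, 87.1% and 85.2%. Of the CCND2 reads, 0.985% lay at the 13 unexpressed sites.

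RB1:PAS2 (chromosome 13, 49056026, plus strand) had 93, 65, 99 and 71 reads and a usage of 88.6%, 92.9%, 96.1% and 92.2%. RB1:PAS1 (48954420), with 12, 5, 4 and 6 reads, lies 101606 nt upstream. That is far more than the 1893 nt of the last exon of the canonical transcript, so a message ending there would lack that exon if RB1:PAS2 marks its end. With 4 to 12 reads, its usage of 11.4% in gNT replicate 1 had a Wilson interval from 6.66 to 18.9%.

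**Figure D3:**
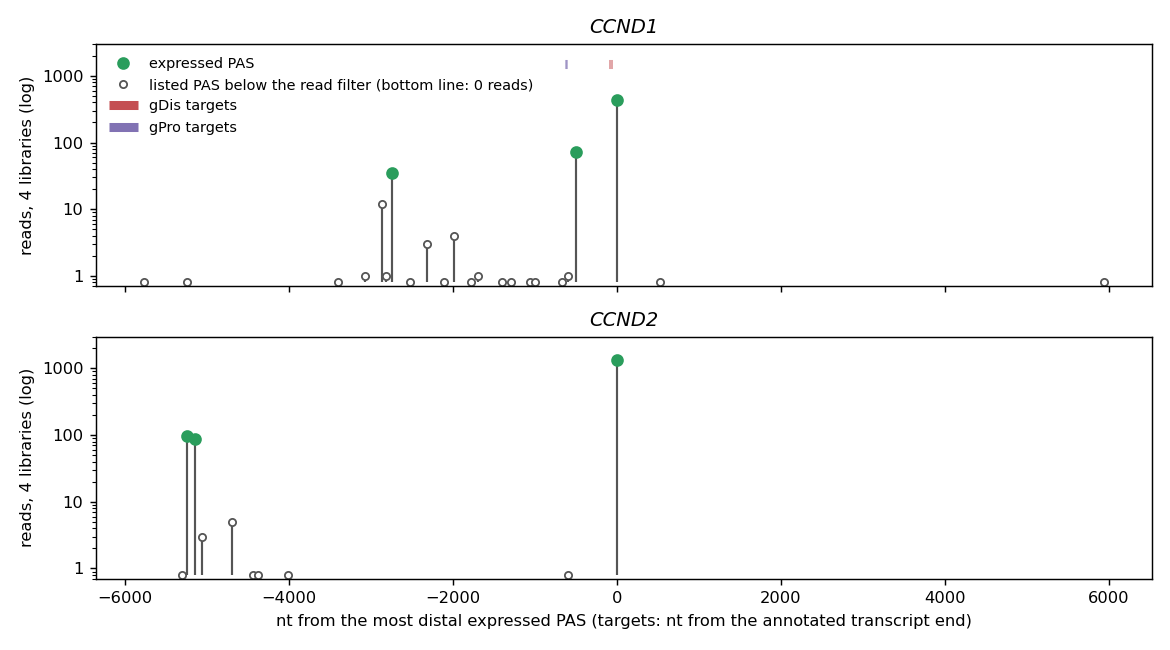
Reads over the 4 libraries at each listed PAS of CCND1 (top) and CCND2 (bottom), on a log axis, against the distance in nt from the most distal expressed PAS, with sites more than 6000 nt away not drawn and with the gDis and gPro targets placed by their distance from the annotated transcript end. Filled points are the expressed PASs, with 35, 72 and 429 reads for CCND1 and 96, 88 and 1324 for CCND2.

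The annotated ends of the group were searched for the common signals AATAAA and ATTAAA. Within the last 40 nt of the canonical transcript, AATAAA was found for CCND1, CCND2, CCND3, CCNE1, CCNE2 and RB1, at 21 to 37 nt from the end, and ATTAAA in its place for CDK6 and CDK2, at 24 and 31 nt. These letters were searched on the transcript strand. Over 20046 coding genes, 62.1% held AATAAA in that window and 13.8% ATTAAA alone. CDK4 held neither at its annotated end, which was not matched to its expressed PAS. CDK6 has the longest 3′ UTR of the group at 10222 nt, and CCNE1 the shortest at 538 nt.

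The first comparison of gUSE with gNT concerned PAS usage. Of the 8 PASs of CCND1, CCND2 and RB1, 0 passed an adjusted p under 0.05 with a usage change above 0.1 in edgeR's diffSpliceDGE, 0 had an unadjusted p under 0.05, and a DEXSeq-style model in DESeq2 gave 0 as well. Over all 14965 PASs tested, 0 passed, which is 0%, and 4.4% had an unadjusted p under 0.05. The paper, which used DEXSeq at these thresholds, reported a few PASs with differential usage. The table used here is cut on chromosome 7, and the difference in outcome was not tested. CCND1:PAS3 went from 80.4% ± 1.51 to 79.8% ± 0.899 (SD, n = 2), a difference of -0.658 percentage points that is smaller than the spread between replicates. CCND1:PAS2 went from 12.2% ± 2.79 to 14.8% ± 2.41, and CCND1:PAS1 from 7.43% ± 1.28 to 5.47% ± 1.51. The groups overlapped at all 3 PASs of CCND1.

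CCND2:PAS2 had the smallest unadjusted p of the 8. Its usage was 4.74% and 4.61% with gNT and 7.22% and 6.97% with gUSE, a difference of 2.42 points, with an unadjusted p of 0.106 and an adjusted p of 1 in edgeR. It rested on 16 to 28 reads per library, and the Wilson interval of gNT replicate 1, from 3.12 to 7.14%, reached that of gUSE replicate 1, from 5.04 to 10.2%. CCND2:PAS3 went from 89.2% ± 0.122 to 86.1% ± 1.39, lower in both gUSE libraries. CCND2:PAS1 went from 6.07% ± 0.0304 to 6.77% ± 1.56 with overlapping groups. The share of all tested PASs with groups apart in usage was not computed. The mean distance of a CCND2 read upstream of the most distal PAS was 563, 554, 668 and 771 nt, and that of a CCND1 read 248, 279, 244 and 202 nt. Both gUSE libraries lay higher for CCND2 and lower for CCND1, where the closest pair was 248 and 244 nt. For RB1 the distances were 11610, 7258, 3946 and 7917 nt, and the groups overlapped. These distances were not tested, and the share of all genes with groups apart by this measure was not computed. For RB1:PAS1, usage was 9.29% ± 3.03 and 5.84% ± 2.76, and the groups overlapped.

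**Figure D4:**
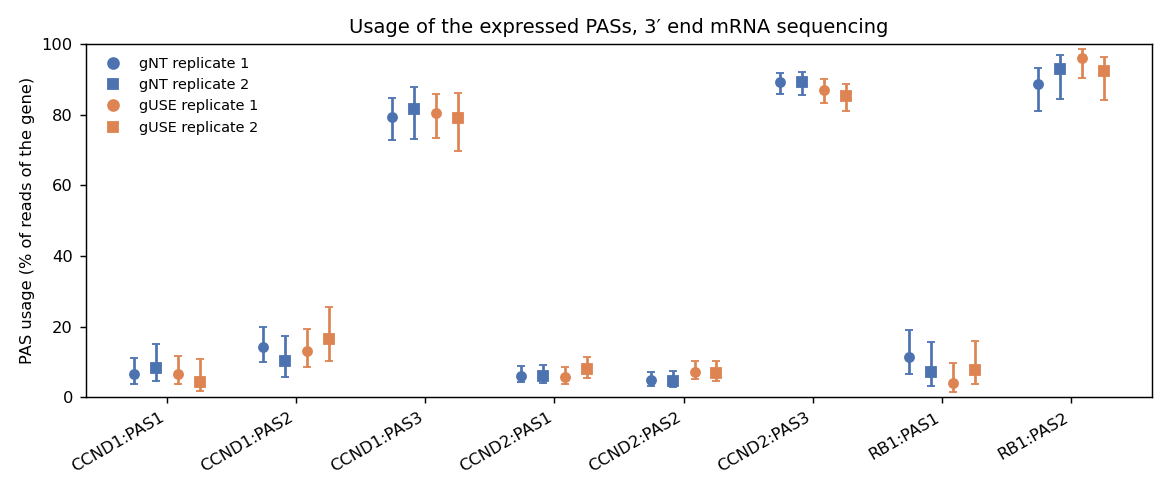
Usage of each expressed PAS of CCND1, CCND2 and RB1 in percent of the reads at the expressed PASs of the gene, for each library, with Wilson 95% intervals. The most distal PAS of each gene holds 79.1 to 96.1%, and the intervals of gNT and gUSE libraries overlap at every PAS.

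The second comparison was of expression. None of the 9 members was called by RNA-seq at an adjusted p under 0.05 in edgeR's quasi-likelihood test, where 0.0783% of 16594 genes were, and 2 had an unadjusted p under 0.05, where 7.97% of all did. In the 3′ end libraries 0 of 7 members were called, against 0.479% of 8559 genes, and 1 had an unadjusted p under 0.05, against 10.5%. DESeq2 called 0 members in either assay and gave 0 an unadjusted p under 0.05, and its shares over all genes were not computed. The median log2 fold change of the members was -0.03 in RNA-seq and -0.04 in the 3′ end libraries, next to 0.00 and 0.01 over all genes. In RNA-seq 3 members had a positive and 6 a negative log2 fold change, and in the 3′ end libraries 3 and 4. In bulk libraries, fewer cells with a message and less of it per cell cannot be told apart.

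CCND1 had the smallest unadjusted p of the group in RNA-seq. It had 69.5 and 64.7 CPM in the gNT libraries against 72.6 and 74.7 in the gUSE libraries, so both gUSE libraries were the higher. The log2 fold change was 0.13 with an SE of 0.06 and a 95% interval from 0.01 to 0.26, with an unadjusted p of 0.0301 and an adjusted p of 0.578 in edgeR. In the 3′ end libraries, whose CPM is given above, both gUSE libraries lay below both gNT libraries with TMM factors, with 77.92 and 77.87 CPM for the closest pair (with library totals as the scale the groups overlapped), and the log2 fold change was -0.27 with an SE of 0.15 and an adjusted p of 0.542. The assays thus pointed in opposite directions for CCND1, and the difference between them was not tested. Leaving out gUSE replicate 1 moved the 3′ end value to -0.53, and leaving out gUSE replicate 2, the library with 57.5 CPM, moved it to -0.09. The RNA-seq value without gNT replicate 2 was 0.08.

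RB1 was the other member under 0.05 without adjustment. Its RNA-seq values were 76.1 and 80.2 CPM in the gNT libraries against 74.9 and 67.3 in the gUSE libraries, lower in both gUSE libraries, with a log2 fold change of -0.13 (SE 0.06, 95% interval -0.26 to -0.01) and an adjusted p of 0.587 in edgeR. It was -0.22 without gUSE replicate 1 and -0.06 without gUSE replicate 2. By 3′ ends RB1 gave 0.06 with an SE of 0.17. The counts of the brake gene therefore gave no call in either assay.

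CCNE1 had the largest log2 fold change of the group in the 3′ end libraries. With 156 and 108 reads in gNT libraries against 184 and 152 in gUSE libraries, both gUSE libraries were higher in CPM, by 0.37 on the log2 scale (SE 0.14, 95% interval 0.09 to 0.65), with an unadjusted p of 0.0107 and an adjusted p of 0.271 in edgeR. In RNA-seq the same gene had 33.8 and 33.5 CPM in the gNT libraries against 33.0 and 30.9 in the gUSE libraries, a log2 fold change of -0.07 with an SE of 0.08. CCNE2, measured by RNA-seq, had 28.5 and 25.2 CPM in the gNT libraries against 29.3 and 30.5 in the gUSE libraries, a log2 fold change of 0.16 with an SE of 0.09 and an adjusted p of 0.708 in edgeR. The CCNE2 value was 0.0655 without gNT replicate 2 and 0.2475 without gNT replicate 1. Neither E cyclin passed the test across all genes.

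The other members had RNA-seq intervals that crossed 0. CCND2 had a log2 fold change of -0.02 (SE 0.06) and CCND3 of 0.07 (SE 0.08). CDK4, CDK6 and CDK2 had -0.03, -0.06 and -0.06, with SEs of 0.04, 0.05 and 0.05, and the 95% intervals of the 3 kinases lay between -0.16 and 0.05. By 3′ ends CCND2 had -0.12 (SE 0.10), CCND3 0.24 (SE 0.14), CDK4 -0.04 (SE 0.09) and CDK2 -0.08 (SE 0.09). The RNA-seq intervals of all 9 members stayed within -0.26 and 0.34 on the log2 scale, and those of the 3′ end libraries within -0.58 and 0.65. Adjusted p-values in edgeR ranged from 0.578 to 0.965 in RNA-seq and from 0.271 to 0.942 by 3′ ends.

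In RNA-seq the gNT and gUSE values, in CPM with TMM factors, did not overlap for 7 of 9 members, where this held for 37.5% of all tested genes. With library totals as the scale it was 5 of 9, against 37.9%. By 3′ ends it was 5 of 7, against 41%, or 4 of 7 with library totals, against 41.1%. This count thus depended on scaling factors that all lay between 0.995 and 1.01, and the closest pairs of CDK4 (142.7 and 142.2 CPM) and CDK2 (97.6 and 97.4 CPM) in RNA-seq were near each other.

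**Figure D5:**
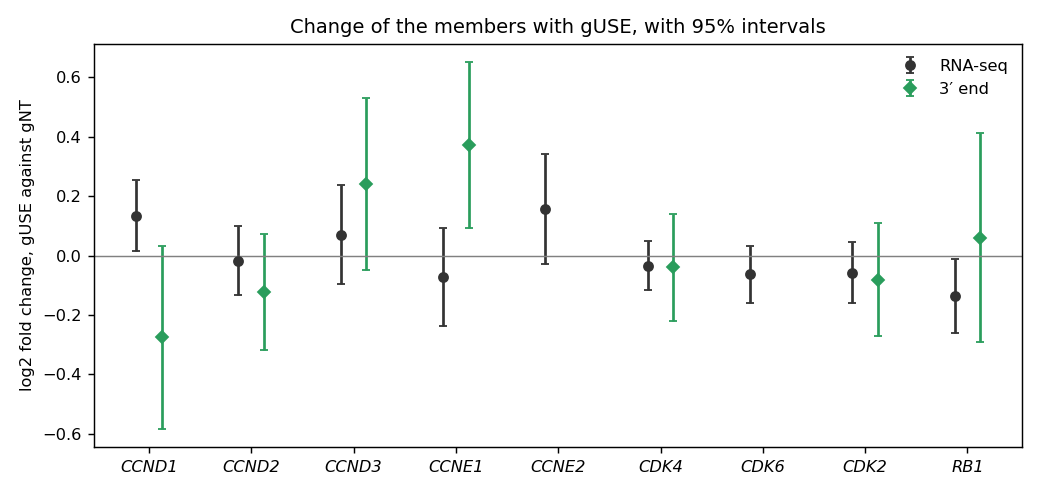
The log2 fold change of each member, gUSE against gNT, with its 95% interval from edgeR, in RNA-seq (black) and 3′ end mRNA sequencing (green), for which CCNE2 and CDK6 were not analysed. Most intervals cross 0, and the exceptions are CCND1 (0.01 to 0.26) and RB1 (-0.26 to -0.01) in RNA-seq and CCNE1 (0.09 to 0.65) by 3′ ends.

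The genes that act around the cyclins were taken from 8 lists with 53 genes. In RNA-seq 51 were tested and 0 were called in edgeR. At an unadjusted p under 0.05 in edgeR, 5 were higher and 2 lower with gUSE (3.95% and 4.02% of all tested genes). DESeq2 gave an unadjusted p under 0.05 for 2, and its share over all genes was not computed. Their median log2 fold change was 0.03, next to 0.00 over all genes. By 3′ ends 42 were tested and 0 were called in edgeR. There, 5 were higher and 3 lower at an unadjusted p under 0.05 (5.09% and 5.44% of all tested genes). DESeq2 gave an unadjusted p under 0.05 for 3 of the listed genes, again without a share over all genes. The median by 3′ ends was 0.03, next to 0.01. For the inhibitors that hold cyclin kinases in check, 6 were tested in RNA-seq, where CDKN2C, an inhibitor of CDK4 and CDK6, had 369 and 395 counts in the gNT libraries against 406 and 372 in the gUSE libraries (log2 fold change 0.24, SE 0.08, adjusted p 0.424 in edgeR). CDKN1B, which encodes p27 and restrains cyclin E with CDK2, had a log2 fold change of 0.11 (SE 0.07). By 3′ ends CDKN1A, encoding p21, had 0.23 (SE 0.08, adjusted p 0.237 in edgeR) and CDKN2D 0.50 (SE 0.24). The median over the inhibitors was 0.08 in RNA-seq and 0.31 over the 4 tested by 3′ ends, with 0 called in either assay. The other pocket proteins, RBL1 and RBL2, had 0.05 and -0.01 in RNA-seq, with SEs of 0.06 and 0.07, and -0.26 and 0.18 by 3′ ends, with SEs of 0.24 and 0.33.

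E2F3, an activating E2F that drives entry into S phase, had the smallest p of the lists in RNA-seq. It had 1622 and 1746 counts in the gNT libraries against 1744 and 1575 in the gUSE libraries, a log2 fold change of 0.19 (SE 0.04) and an adjusted p of 0.113 in edgeR. E2F3 was called when genes with low counts were kept (adjusted p 0.0189 in edgeR), and the share of all genes called in that fit was not computed. Without gNT replicate 2 its log2 fold change was 0.21. E2F4, mostly a repressor, had 0.09 (SE 0.05). By 3′ ends TFDP1, the usual partner of the E2Fs, had 0.25 (SE 0.08) and E2F7, an atypical repressor with 19 to 46 reads, -0.66 (SE 0.29), both without a call.

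Among the S phase targets of E2F, ORC1, a subunit of the complex that marks replication origins, had a log2 fold change of 0.20 in RNA-seq (SE 0.06, adjusted p 0.364 in edgeR). CDT1, which loads the replicative helicase, had -0.09 (SE 0.04) in RNA-seq and 0.32 (SE 0.09) by 3′ ends, from 412, 287, 478 and 380 reads, with adjusted p-values of 0.584 and 0.126. RRM1, a subunit of ribonucleotide reductase, had 0.21 (SE 0.06, adjusted p 0.136 in edgeR) by 3′ ends. With the replicate number as a block in the 3′ end fit, CDT1 and RRM1 were called, and the share of all genes called in that fit was not computed. The median over this list was 0.03 in RNA-seq and -0.02 by 3′ ends.

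The lists on kinase activation and turnover held 0 called genes, with 3′ end medians of -0.29 over the 2 tested genes of the CDK-activating kinase, 0.00 over the phosphatases with WEE1 and 0.04 over cyclin turnover. CCNH and MNAT1, partners of the kinase that activates CDKs, had -0.18 (SE 0.08) and 0.03 (SE 0.06) in RNA-seq and -0.33 (SE 0.23) and -0.25 (SE 0.17) by 3′ ends. CDC25A, the phosphatase that removes inhibitory phosphates from CDK2, had 0.09 (SE 0.03) in RNA-seq and 0.06 (SE 0.06) by 3′ ends, and WEE1, the kinase that adds them, had -0.05 (SE 0.04) in RNA-seq. CDC25C, which acts on CDK1 at mitosis, had 0.34 (SE 0.23) by 3′ ends. CUL1, the scaffold of the ligase that degrades cyclin E and p27, had 0.11 (SE 0.03, adjusted p 0.423 in edgeR) in RNA-seq. AMBRA1, which targets D cyclins for degradation, had 0.08 (SE 0.06) in RNA-seq and 0.26 (SE 0.27) by 3′ ends, where SKP2 had 0.23 (SE 0.23). CDK1 and CCNB1, the pair that drives mitosis, had -0.04 (SE 0.05) and 0.03 (SE 0.04) in RNA-seq, and by 3′ ends CDK1 had -0.12 (SE 0.08) and CCNA2 0.14 (SE 0.13). None of these genes was called in either assay.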

How the data were processed

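The 2 tables used hold counts deposited by the authors. For the 3′ end libraries (QuantSeq REV), the authors trimmed reads with cutadapt, aligned them to hg38 with STAR and counted unique reads within 24 nt of each PolyA_DB3 PAS with featureCounts. For RNA-seq they counted unique reads per gene of GENCODE 37 after STAR (2.7.9 in the submitters' processing notes). Use of strand was not stated. PASs that name no gene held 6.57 to 7.26% of the 3′ end reads and were left out of gene sums and library sizes. The PAS table ends on chromosome 7, with 1 line cut short.

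Genes that reached 10 counts in 2 libraries and PASs that reached 5 reads in 2 libraries were tested with edgeR 4.0.16 (TMM, glmQLFit, glmQLFTest, diffSpliceDGE) across the whole table, with Benjamini-Hochberg adjustment. The SE is the log2 fold change over the root of F. DESeq2 1.42.0 was an alternative, and filters, scaling, a block and left-out replicates were others. The fits were run on simulated data with 200 known changes. Those changes were larger than the shifts of the members, so the simulation does not show how the fits handle small shifts. TPM used GENCODE 44 exon lengths, while the counts used another release. Positions on GRCh38 came from an exact search. Wilson intervals cover counting error only.

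Replicates were 2 per group and assay. Members and lists were chosen with earlier results of these data known. Named were all members, their expressed PASs, and, as no listed gene was called, the 2 genes per list with the smallest p.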

Additional observations from a re-analysis of the deposited data

How the results depend on the processing

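The count of members called was 0 under each alternative that was run, in RNA-seq, by 3′ ends and for PAS usage. For the pathway lists, 1 gene (E2F3, log2 fold change 0.19) was called in RNA-seq with no filter on low counts, and 0 to 1 with 1 replicate left out, the 1 being without gNT replicate 2 (0.21). With the replicate block, 2 pathway genes were called by 3′ ends (CDT1 0.32, adjusted p 0.0188, and RRM1 0.21, adjusted p 0.00379, in edgeR). For these alternative fits the share of all genes called was not computed, so these calls cannot be set against it. Same-numbered 3′ end libraries deviated together with r = 0.0814 over 4995 genes. This value does not settle whether they were prepared together, which was not tested. The paper used a paired t-test for the reporter PAS in its 3′ end data. The block changed no other call. RNA-seq libraries had no numbers that pair them across groups. CCND1 ranked 3 by TPM, 3 to 4 with 1 gNT replicate left out, and 5 with the length of the longest transcript, where CDK4 (178), CDK2 (87.3), CCNE1 (39.7) and RB1 (37.8) stood above it, so the choice of length set that rank.

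Signs turned only when 1 library was left out, in which case the lone library was assumed to vary like the other group. The log2 fold change of CCND2 in RNA-seq was 0.0052 without gNT replicate 2 and 0.0254 without gUSE replicate 2 (range -0.0646 to 0.0254), and that of CDK2 by 3′ ends was 0.0408 without gNT replicate 1 (range -0.1688 to 0.0408). The usage change of CCND1:PAS3 was 0.409 points without gNT replicate 2 (range -1.73 to 0.409), and -2.5 points when PASs needed 5 reads in all libraries, which leaves out CCND1:PAS1, and that of CCND2:PAS1 -0.403 points without gUSE replicate 2 (range -0.403 to 1.80). The cause was not tested. Depth limits RB1:PAS1 and the upstream PASs of CCND1 and CCND2, with 4 to 28 reads per library, and 2 libraries per group limit every test.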

Other observations

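The gPro targets of CCND1, which end 601 and 613 nt before the annotated transcript end, can be set beside the listed PASs by distance, if CCND1:PAS3 marks that end. The nearest listed PAS downstream of them is then the one 599 nt upstream of CCND1:PAS3, which had 0, 0, 1 and 0 reads in the order gNT replicates 1 and 2 and gUSE replicates 1 and 2. The next one is CCND1:PAS2, the upstream PAS with the most reads, at 493 nt, with 72 reads over the 4 libraries. The gDis targets begin 75 and 99 nt before the transcript end, and the AATAAA begins 21 nt before it, so these targets do not cover that AATAAA. The paper describes these gRNAs as aimed at the PAS signal, and signals other than AATAAA and ATTAAA were not searched.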
